A study of Sus scrofa with 9 samples.

Results

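The complement genes C1R, C1S, C3, CFB, CFD, CFI, SERPING1, CD55 and CD46 were followed through RNA-seq of cultured porcine valvular interstitial cells (PVICs), the fibroblast-like cells that maintain the aortic valve leaflet. They were taken by symbol from the deposited gene table, where all 9 were found among 19535 genes. The cells were wild type and came from the aortic valves of pigs aged 4 to 5 months, with the surface endothelium removed. Control cells were kept in DMEM, OIM cells in osteogenic induced medium (OIM) with ascorbic acid (50 µg/mL), insulin and a phosphate salt (2 mmol/L), and bFGF cells in the same OIM with 50 ng/mL basic fibroblast growth factor (bFGF). Each group had 3 libraries, and bFGF was given only together with OIM, so no library shows bFGF alone. The labels give 3 days of treatment and the study's methods a shorter time. Neither says whether the 3 libraries of a group came from separate animals or cultures, so the p-values here measure the spread between these libraries, which may be technical.

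Complement is a cascade of proteases and binding proteins that marks surfaces for clearance, releases small inflammatory peptides and can open pores in membranes. C1r and C1s are the paired proteases of the C1 complex that start the classical pathway, and C1 inhibitor (SERPING1) inactivates them. All routes meet at C3, whose cleavage product C3b coats surfaces. Factor D (CFD) cleaves factor B (CFB) bound to C3b to build the alternative-pathway convertase, which makes more C3b. CD55 speeds the decay of convertases, and factor I (CFI) cuts C3b with the help of cofactors such as CD46. Most circulating complement is made by the liver, but fibroblasts are well known to make several of these proteins locally.

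Total counts on genes ranged from 57075793 to 64723837 per control library, from 57682710 to 67371523 per OIM library and from 46773376 to 48270827 per bFGF library. Of all genes, 13662 had enough counts for testing, and all 9 complement genes were among them. Levels are given as CPM (counts scaled to a common library size, with TMM factors) and as mean ± SD of 3 libraries. A gene counted as called when edgeR's quasi-likelihood test gave an adjusted p up to 0.05 and the log2 fold change reached 0.5 in either direction. OIM replicate 2 differed most from its group, with a mean chi-square per gene of 18.8 and 18.9 against the other OIM libraries and 4.66 to 11.5 in all other pairs of replicates. The 10 interstitial markers (among them VIM, COL1A1 and PDGFRA) summed to 39100 to 70800 CPM over the 9 libraries, and 5 of 6 lymphocyte markers (CD3E, CD3D, CD2, MS4A1 and CD79B) had 0 counts in every library. Summed macrophage markers had 16 to 19.8 CPM in control, 16.7 to 18.3 in OIM and 10.2 to 11.2 in bFGF. Summed endothelial markers had 73.9 to 76.7 CPM in control, 88.2 to 90.9 in OIM and 171 to 181 in bFGF.

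The loci are given on Sscrofa11.1 with RefSeq annotation. C1R (chromosome 5, 63644097 to 63655149, plus strand) and C1S (63670309 to 63681466, minus strand) lie 15159 bases apart. SERPING1 (13324160 to 13338826, minus strand), C3 (72431470 to 72471622, plus strand) and CFD (77509792 to 77511988, minus strand) are all on chromosome 2. CFI lies on chromosome 8 from 112430824 to 112470844 (plus strand). CFB (chromosome 7, 24034077 to 24040523, plus strand) begins 34 bases after the end of C2 and ends 1 base before NELFE. CD55 (67933069 to 67960380, plus strand) and CD46 (135025439 to 135078910, minus strand) are both on chromosome 9. CFD lies inside the span of MED16, which runs on the opposite strand, without an overlap of their exons. The program that counted the reads and its use of strand are not given in the sources used here, so reads of CFB and its close neighbours, or of CFD and introns of MED16, may not have been fully told apart.

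The promoters, taken as 250 bases before to 50 bases after the annotated gene start, were searched on both strands for short motifs of factors that are known to drive complement genes or to act downstream of growth factors. The STAT motif TTCNNNGAA was found for 3 of 9 genes (SERPING1, CD55 and CFB) and in 7.1% of the 19545 promoters of protein-coding genes. The C/EBP motif TTGCNNAA was found for C1S and CFD and in 9.5% of all promoters, and the core of the interferon-stimulated response element was found for CFI and in 3.6%. AP-1 (TGANTCA, 6.1% of all promoters) and ETS (CCGGAAG, 11.0%) had no match in the 9 windows. The loose NF-kB motif matched 5 of 9 genes (C3, CFB, CFD, SERPING1 and CD46) and 65.6% of all promoters, and the loose SRF motif matched 6 of 9 and 82.8%. Both can overlap other motifs. Each match describes letters only and is no evidence of binding. The rarer matches before the gene start, and 1 of several overlapping NF-kB matches of C3, are shown because they place the letters found beside the genes described below, each within 30 bases read 5′ to 3′ on the strand of its gene, with the motif in capitals.
SERPING1 (STAT, chr2:13339045-13339074): agatggccaaTTCCCGGAAagctggttgct
CD55 (STAT, chr9:67932892-67932921): ctttctcagcTTCTGAGAAcaaccttaaaa
C1S (C/EBP on the opposite strand, chr5:63681531-63681560): aaaaaagagtgTTAGGCAAtcggtgaaatt
CFD (C/EBP, chr2:77512073-77512102): tccagctgctgTTGCGAAActctggggctg
CFI (interferon response core, chr8:112430577-112430606): ccctaacaaaGAAAAGGAAAtatttatttc
C3 (NF-kB, chr2:72431382-72431411): tgagaaatctGGGGCAGCCCcagggagggg

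The 9 genes differed widely in how much RNA they gave. Per kilobase of annotated exon, control cells had 233 ± 5.63 CPM per kb of C1S, 161 ± 6.72 of C1R, 106 ± 11.2 of C3, 80.1 ± 4.53 of SERPING1 and 71.4 ± 0.522 of CD46 (SD, n = 3). These 5 genes stood above 94.8% to 98.5% of tested genes of known length. CFI and CFD had 2.91 ± 0.148 and 2.71 ± 0.481 CPM per kb, and CFB and CD55 had 0.157 ± 0.073 and 0.0976 ± 0.0235 CPM per kb (SD, n = 3). The libraries of CFI and CFD overlapped in control, as did those of CFB and CD55, while the other neighbours in this order did not. In OIM, C3 had 65.1 ± 1.49 CPM per kb (SD, n = 3) and stood below SERPING1 and CD46, which overlapped each other. In the bFGF group CD46 came first with 67.7 ± 0.754 CPM per kb, above C1S with 56.8 ± 3.51, C1R with 49.2 ± 0.623, SERPING1 with 33.4 ± 2.18 and C3 with 8.80 ± 0.829 (SD, n = 3), and no library of these 5 genes overlapped that of its neighbour. C3 thus stood above 96.6% of tested genes in control and above 59.6% in bFGF.

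**Figure D1:**
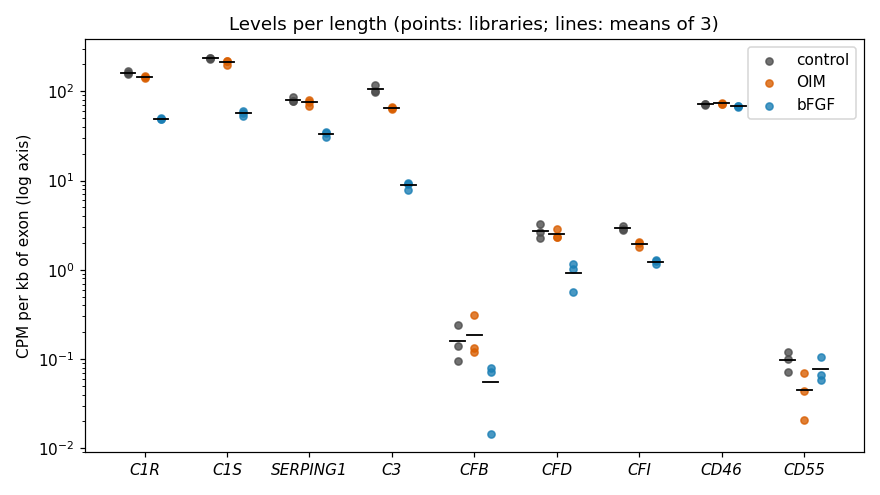
Level of each complement gene per kilobase of exon (log axis) in the 9 libraries, as points coloured by group with a line at the mean of 3 libraries. C1S led in control and OIM, CD46 led in bFGF, and CFB and CD55 stayed at or under 0.308 CPM per kb in every library.

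The comparison of bFGF with OIM asks what the growth factor changed in cells already in osteogenic medium. C3, both proteases of C1, their inhibitor and all 3 proteases of the alternative pathway or its control (CFB, CFD and CFI) were lower with bFGF. Of the 9 genes, 7 were called lower, beside 18.4% of all genes tested, and 0 were called higher, beside 17.7% (0 also at an unadjusted p of 0.05 in edgeR, and 0 in DESeq2). All bFGF libraries lay on the same side of all OIM libraries in 8 of the 9 genes, beside 72.1% of all genes tested. The median log2 fold change was -1.46 for the 9 genes and -0.003 for all genes. In bulk RNA, fewer cells that express a gene and less of its RNA per cell cannot be told apart. If only library totals were used for scaling, the log2 fold changes of all genes moved up by a median of 0.22 and 68.8% of all calls were higher with bFGF instead of 49.0%; 6 of the 7 genes stayed called lower, beside 12.4% of all genes with that scaling, CFI did not (-0.44), and CD55 was called higher, beside 27.3%.

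C3, the central component, was at 334, 350 and 343 CPM in OIM replicates 1 to 3 and at 49.7, 47.6 and 41.3 CPM in the bFGF replicates. The groups lay far apart, with at least 2149 counts in every library. C3 was 7.40-fold lower with bFGF, a log2 difference of -2.89 (SE 0.068, the standard error; adjusted p = 7.61e-18 in edgeR's test), the largest change among the 9 genes, and leaving out any 1 of the 9 libraries kept the call.

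C1R was at 354, 344 and 366 CPM in OIM and at 121, 122 and 119 CPM in bFGF. C1S, the protease that C1r activates, was at 649, 586 and 657 CPM in OIM and at 179, 170 and 158 CPM in bFGF. Neither gene had overlapping groups, and the bFGF libraries differed little among themselves. C1R fell by 1.55 in log2 terms (SE 0.039, adjusted p = 1.84e-17 in edgeR's test) and C1S by 1.90 (SE 0.048, adjusted p = 1.91e-17 in the same test). SERPING1, whose product blocks both proteases, was at 151, 130 and 145 CPM in OIM and at 64.8, 66.6 and 58.7 CPM in bFGF, a log2 difference of -1.16 (SE 0.058, adjusted p = 5.17e-13 in edgeR's test). Its groups did not overlap either, and its log2 fold change was nearer to 0 than those of C1R and C1S.

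Among the proteases of the alternative pathway, CFD had 142, 211 and 147 counts in OIM and 69, 33 and 59 in bFGF, or 2.81 ± 0.372 and 1.02 ± 0.341 CPM (SD, n = 3). Every bFGF library lay below every OIM library, and the log2 fold change was -1.46 (SE 0.24, adjusted p = 2.46e-05 in edgeR's test). CFB was hardly expressed, with 44, 23 and 18 counts in OIM and 10, 11 and 2 in bFGF. Its log2 fold change of -1.74 had a SE of 0.62 (adjusted p = 0.0188 in edgeR's test), and the call was lost without OIM replicate 1 (-1.19, adjusted p = 0.144) or without bFGF replicate 3 (-1.29, adjusted p = 0.0957). Over all its alternatives the adjusted p ran from 0.0137 to 0.144, so CFB rests on few reads and depends on both libraries.

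The regulators of C3b did not move alike. CFI, the protease that inactivates C3b, was at 10.7, 11.1 and 9.86 CPM in OIM and at 6.28, 6.75 and 7.00 CPM in bFGF, with no overlap, and fell by 0.66 in log2 terms (SE 0.092, adjusted p = 2.93e-06 in edgeR's test). CD46, its membrane cofactor, was at 287, 279 and 280 CPM in OIM and at 257, 259 and 263 CPM in bFGF. The difference of -0.12 in CD46 (95% interval -0.20 to -0.04, adjusted p = 0.00331 in edgeR's test) was far under the fold limit, and it turned to 0.10 with library totals in place of TMM, so its direction depends on the scaling. CD55 had 36, 13 and 24 counts in OIM and 30, 53 and 33 in bFGF, groups that overlapped. Its log2 fold change of 0.80 (95% interval -0.28 to 1.88, adjusted p = 0.118 in edgeR's test) was not called, but it was called without OIM replicate 1 (1.26, adjusted p = 0.0342, within a range of 0.0342 to 0.41 over the alternatives).

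**Figure D2:**
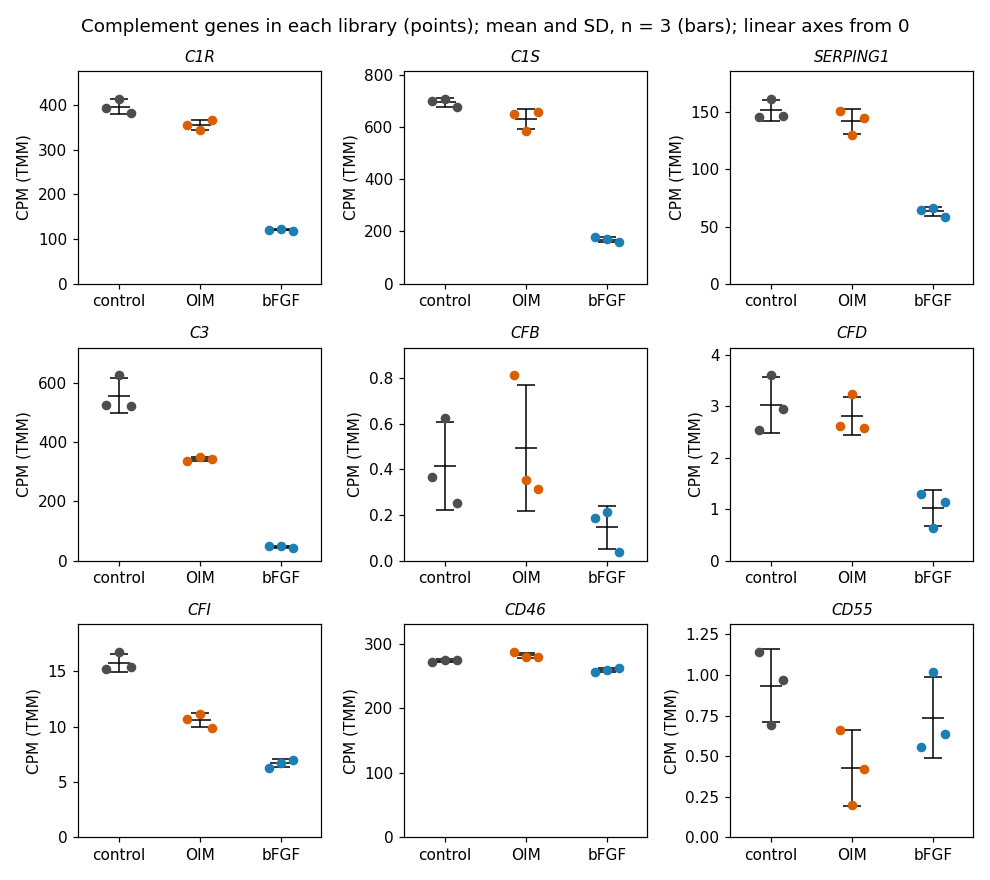
CPM of each complement gene in the 9 libraries (points, linear axes from 0) with mean and SD of 3 libraries. In C3, C1R, C1S, SERPING1, CFD and CFI every bFGF library lay below every OIM and control library, CD46 varied from 257 to 287 CPM in all, and CD55 overlapped between bFGF and both other groups.

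The comparison of OIM with control asks what the osteogenic medium alone changed. Of the 9 genes, 2 were called lower (C3 and CFI), beside 0.864% of all genes tested, and 0 were called higher, beside 1.49% (0 at the unadjusted p in edgeR, and 0 in DESeq2). The groups did not overlap in 6 of 9 genes, beside 28.8% of all genes tested, and the median log2 fold change was -0.14 against -0.002 for all genes. By adjusted p alone, 4 of the 9 were lower, beside 5.87% of all genes tested.

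C3 was at 523, 624 and 521 CPM in control and at 334 to 350 CPM in OIM. It fell by 0.70 in log2 terms (SE 0.061, adjusted p = 1.62e-07 in edgeR's test), a 1.63-fold lower level. CFI was at 15.2, 16.7 and 15.4 CPM in control and at 9.86 to 11.1 CPM in OIM, a log2 difference of -0.58 (SE 0.088, adjusted p = 0.000114 in edgeR's test). Both calls were kept whichever of the 9 libraries was left out, and in both genes every OIM library lay between the control and the bFGF libraries.

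C1R and C1S were also lower in every OIM library than in every control library, by small amounts. Their log2 fold changes were -0.16 (SE 0.038, adjusted p = 0.00656 in edgeR's test) and -0.14 (SE 0.046, adjusted p = 0.0495), under the fold limit. C1R was at 392, 414 and 382 CPM in control, and C1S at 699, 709 and 676 CPM. SERPING1 had 152 ± 8.58 CPM in control and 142 ± 11.0 in OIM, CFD 3.03 ± 0.537 and 2.81 ± 0.372, and CFB 0.415 ± 0.192 and 0.493 ± 0.276 (SD, n = 3), and the groups of these 3 genes overlapped. CD46 had 274 ± 2.01 CPM in control and 282 ± 4.08 in OIM (SD, n = 3), which gave a log2 difference of 0.04 (95% interval -0.04 to 0.12). CD55 had 62, 42 and 58 counts in control against 36, 13 and 24 in OIM. Its groups did not overlap, and its log2 fold change of -1.14 (SE 0.43, adjusted p = 0.0940 in edgeR's test) was not called, though it was without OIM replicate 1 (-1.60, adjusted p = 0.0440, within a range of 0.0440 to 0.299 over the alternatives).

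The bFGF group was also set against control, which shares its libraries with both comparisons above and is not independent of them. Again 7 of 9 genes were called lower, beside 20.0% of all genes tested, and 0 higher, beside 18.9% (0 at the unadjusted p in edgeR, and 0 in DESeq2). The groups did not overlap in 8 of 9 genes, beside 73.7% of all genes tested. C3 had 556 ± 59.0 CPM in control and 46.2 ± 4.36 in bFGF (SD, n = 3), a 12.0-fold lower level. C1S was 4.11-fold lower, C1R 3.28-fold, CFD 2.97-fold, SERPING1 2.40-fold and CFI 2.36-fold. The call for CFB (log2 fold change -1.50, SE 0.63, adjusted p = 0.0400 in edgeR's test) was lost in 4 of 9 fits with 1 library fewer: without control replicate 1 (adjusted p = 0.0605) or 2 (0.198), and without bFGF replicate 1 (0.0594) or 3 (0.169), with adjusted p from 0.0274 to 0.198 over all alternatives. It was also lost with library totals alone (-1.27, adjusted p = 0.0752 in edgeR's test). CD46 and CD55 were not called, with log2 fold changes of -0.08 and -0.34, and that of CD46 was 0.15 with library totals alone.

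**Figure D3:**
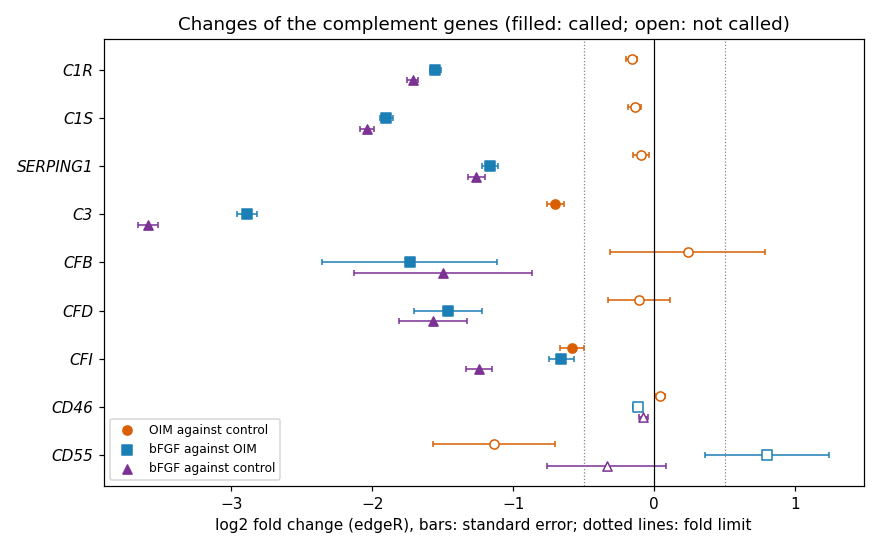
Log2 fold change of each complement gene (x axis, bars for the standard error) in the 3 comparisons, filled where called and open where not, with dotted lines at the fold limit of 0.5. C3 moved most in both bFGF comparisons, by -2.89 and -3.59, CD55 had the largest value for OIM against control (-1.14, not called), and CD46 stayed within the dotted lines.

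Ratios of 2 genes within a library do not depend on how libraries are scaled, and they show whether partners kept their proportion. C1S had 1.71 to 1.78 counts per count of C1R in control and 1.71 to 1.83 in OIM, but 1.48, 1.39 and 1.33 in the bFGF libraries. The log2 ratio was 0.83 ± 0.05 in OIM and 0.48 ± 0.08 in bFGF (SD, n = 3), lower in 3 of 3 libraries by 0.35 (p = 0.1 in a two-sided exact permutation test, which cannot give less with 3 against 3 libraries).

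C1R had 2.56 to 2.68 counts per count of its inhibitor SERPING1 in control, 2.34 to 2.64 in OIM and 1.83 to 2.03 in bFGF. The log2 ratio went from 1.32 ± 0.09 in OIM to 0.93 ± 0.08 in bFGF (SD, n = 3), again without overlap (exact permutation test, p = 0.1). Both ratios overlapped between OIM and control, with differences of 0.02 and -0.06 (exact permutation tests, p = 0.6 and 0.4). The log2 ratio of CFB to CFI was -5.35 ± 0.60 in control, -4.55 ± 0.72 in OIM and -5.86 ± 1.43 in bFGF (SD, n = 3), a wide spread, with 2 to 44 counts of CFB per library. Its difference between bFGF and OIM was -1.31 (exact permutation test, p = 0.1), but -0.48 without bFGF replicate 3. The log2 ratio of CD55 to CD46 was -8.23 ± 0.37 in control, -9.53 ± 0.86 in OIM and -8.51 ± 0.45 in bFGF (SD, n = 3). It was lower in every OIM library than in every control library, by 1.30 (exact permutation test, p = 0.1), a difference of -0.84 without OIM replicate 2, and overlapped between bFGF and OIM (p = 0.2, exact permutation test). Over these 12 comparisons of ratios, every raw p of 0.1 became 0.2 after Benjamini-Hochberg adjustment of the exact permutation tests. As the smallest possible raw p was 0.1, no ratio could have reached 0.05, and these tests cannot decide whether a ratio changed.

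**Figure D4:**
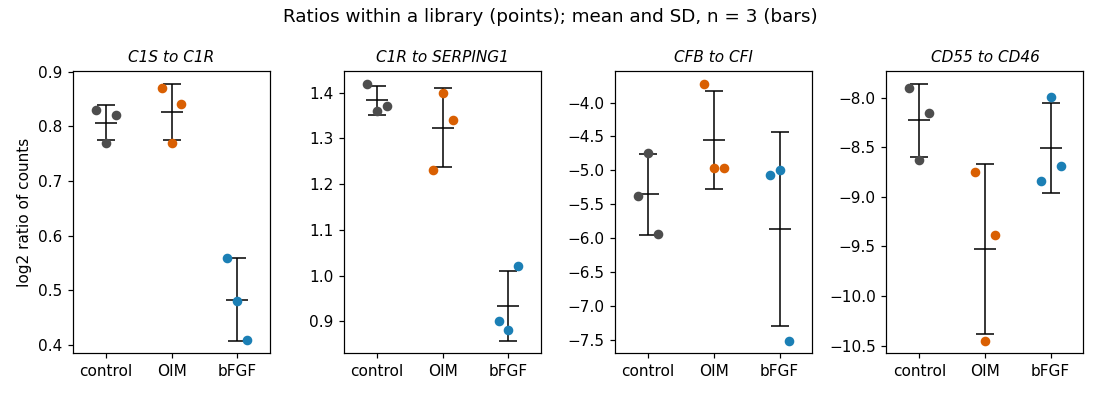
Log2 ratio of counts of 4 pairs of complement genes in each library (points), with mean and SD of 3 libraries. The ratios of C1S to C1R and of C1R to SERPING1 were lower in all bFGF libraries than in all others, and the ratios that hold CFB or CD55 spread widely within groups.

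The rest of the pathway was followed through a list of 47 other complement genes. Of these, 28 were tested, 13 had too few counts and 6 were not found by symbol in the gene table. In bFGF against OIM 10 of 28 were called lower, beside 18.4% of all genes tested, and 4 higher, beside 17.7%, so the count of higher genes was not above the background. The other 14 were not called, and the median log2 fold change was -0.51. With library totals alone 6 were called lower, beside 12.4% of all genes, and 6 higher, beside 27.3%: the calls of C6, C9, CD59 and C5AR2 were lost, and C3AR1 and C1QBP were called higher (genes named here after their values had been seen). In OIM against control, 1 was called higher, beside 1.49% of all genes, and 0 lower, beside 0.864% (1 at an unadjusted p in edgeR, 0 in DESeq2), and in bFGF against control 5 were higher, beside 18.9%, and 10 lower, beside 20.0%.

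Upstream of C3, the partners that build the classical convertase were lower. C2 had 10.8 ± 1.29 CPM in OIM and 3.64 ± 0.247 in bFGF, and C4A had 5.03 ± 0.771 and 1.65 ± 0.411 (SD, n = 3), log2 fold changes of -1.57 and -1.60 (adjusted p = 1.18e-09 and 1.68e-07 in edgeR's test). The chains of C1q, which recognise antibody and carry C1r and C1s, were hardly detected: C1QA, C1QB and C1QC had 7 to 78 counts per library, and 0 of 3 were called, from which nothing can be read at the shares of all genes given above. MASP1, whose gene gives lectin-pathway proteases, went the other way. It had 179 ± 11.1 CPM in OIM and 370 ± 13.9 in bFGF (SD, n = 3), which gave a log2 difference of 1.05 (SE 0.048, adjusted p = 1.29e-13 in edgeR's test), and counts per gene do not separate its products. COLEC12, a membrane collectin and scavenger receptor, had 13.8 ± 1.77 CPM in OIM and 50.3 ± 2.03 in bFGF (SD, n = 3), which gave a log2 difference of 1.87 (adjusted p = 3.25e-14 in edgeR's test).

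Downstream of C3, all 4 terminal components that could be tested (C5, C6, C7 and C9, which take part in the membrane pore) were called lower with bFGF, beside 18.4% of all genes tested, and with library totals alone C6 and C9 were not. C5 fell by 1.99 from 29 to 54 counts per OIM library to 8 to 11 per bFGF library (adjusted p = 0.00107 in edgeR's test). C7 and its set of 4 were singled out after their values had been seen: C7 was the abundant one, with 58.8 ± 4.77 CPM in OIM and 23.9 ± 0.891 in bFGF (SD, n = 3, log2 fold change -1.30, adjusted p = 1.43e-12 in edgeR's test). The call of C6 was lost in 1 of 9 fits with 1 library fewer and that of C9 in 3.

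Among the regulators, CLU, the secreted chaperone clusterin that also restrains the membrane pore, had 1090 ± 63.1 CPM in OIM and 377 ± 18.7 in bFGF (SD, n = 3), which gave a log2 difference of -1.54 (adjusted p = 1.44e-16 in edgeR's test). CSMD2, a large membrane protein with complement control domains, was called higher in both comparisons, at 0.675 ± 0.0562 CPM in control, 1.42 ± 0.300 in OIM and 3.65 ± 0.143 in bFGF (SD, n = 3). Its log2 fold changes were 1.08 for OIM against control and 1.36 for bFGF against OIM (adjusted p = 0.00406 and 1.17e-05 in edgeR's test). CD59, another membrane regulator given here after its values had been seen, went the other way, from 83 CPM in OIM to 55 in bFGF. It was called lower (log2 fold change -0.59, adjusted p = 2.38e-10 in edgeR's test), but not with library totals alone. CD93, a membrane protein related to C1q receptors and abundant in endothelium, rose by 1.64 from 1.23 ± 0.361 to 3.84 ± 0.215 CPM (SD, n = 3, adjusted p = 2.88e-06 in edgeR's test). In the same comparison 7 of 10 endothelial markers were called higher, beside 17.7% of all genes tested, and 0 lower, with their summed level at 88.2 to 90.9 CPM in OIM and 171 to 181 in bFGF and 0 of 10 markers at 0; their part in the rise of CD93 was not tested. Of 7 macrophage markers tested, 2 were called lower and 0 higher, beside the falls of C2, C4A and 7 of the 9 complement genes, and beside 18.4% lower and 17.7% higher among all genes tested. Their part was not tested either. The summed interstitial markers were at 62000 to 64900 CPM in OIM and 39100 to 39500 in bFGF, with 4 of 10 called lower and 2 higher (the latter near the share of all genes), and their part in the falls was not tested.

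**Figure D5:**
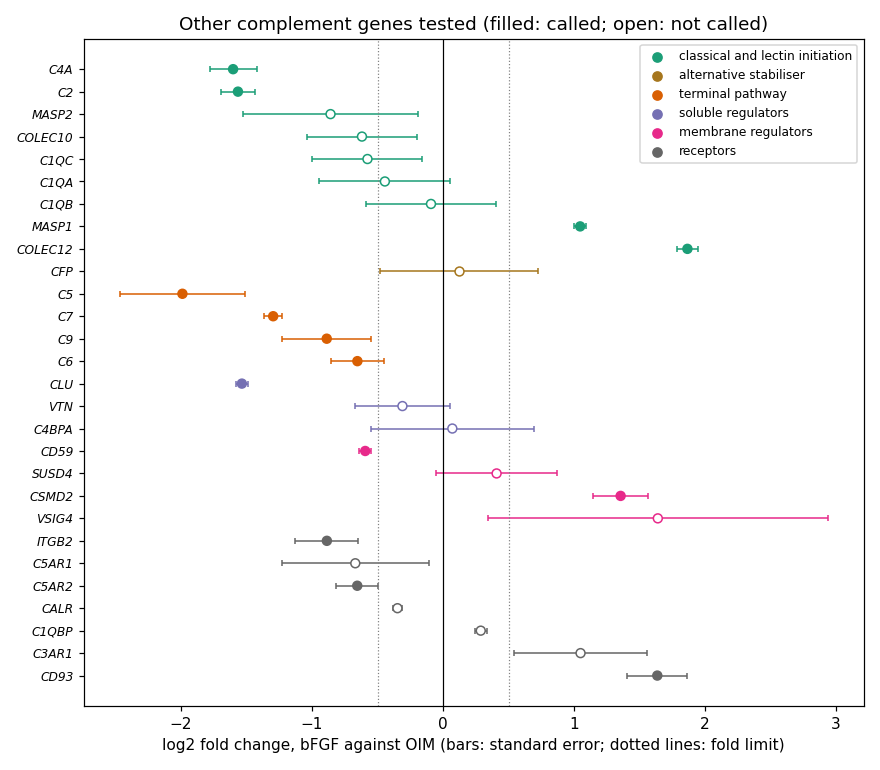
Log2 fold change for bFGF against OIM (bars for the standard error) of the 28 other complement genes tested, coloured by role, filled where called. The 4 terminal components lie left of the fold limit, and COLEC12, MASP1, CSMD2 and CD93 are the filled points right of it.

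Genes with the most similar profile were found by the root-mean-square difference of log2 CPM over the 9 libraries, each gene centred on its mean, among 12743 other tested genes with a symbol. Closest to C3 were PRSS23 (difference 0.11) and EGLN3 (0.16), which also had lower levels in OIM than in control, by log2 fold changes of -0.72 and -0.75. TPI1 (0.035) and AK4 (0.037) lay closest to C1R, and GBE1 (0.033) and PLOD2 (0.052) to C1S. MROH1 (0.047) and PIK3IP1 (0.055) lay closest to SERPING1, MAB21L3 (0.093) and CX3CL1 (0.10) to CFI, and SH3RF3 and GABRA2 (0.18 each) to CFD. CFB had no close neighbour (CROCC2, 0.40, and ANKRD53, 0.43). These differences describe 9 libraries that fall into 3 groups, so any gene with group means like these comes close.

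Circular RNAs gave no second readout of these loci. Only 1 of 6179 circRNAs in the table had both ends inside one of the 9 genes on its strand, within CD46 (chromosome 9, 135048728 to 135062148), and it had 2 counts in bFGF replicate 2 and 0 in the other libraries.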

How the data were processed

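The libraries, 3 per group, were grouped and numbered from the sample labels. The deposited counts are raw: 19535 genes have whole-number counts, 9888 non-coding transcripts have estimated counts (44.6% of values not whole) and 6179 circRNAs have whole counts; 19 unnamed empty columns were not used. According to the study's methods the authors trimmed reads with Cutadapt and aligned them with STAR to susScr11, after poly-A selection. The submitters' processing notes name Trimmomatic, HISAT2, StringTie and Sscrofa11.1, and the labels name a stranded kit that depletes ribosomal RNA. The sources disagree, and which steps made the counts is not known. A poly-A or total RNA library would weigh introns and short transcripts differently.

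Gene counts were fitted with edgeR 4.0.16 in R 4.3.3 (filterByExpr, TMM, quasi-likelihood test, 3 groups in 1 model, 6 residual degrees of freedom), with Benjamini-Hochberg adjustment over 13662 genes. Standard errors are the log2 fold change divided by the square root of F, and 95% intervals use the t distribution with 6 degrees of freedom. TMM factors were 1.10 to 1.11 for bFGF and 0.937 to 0.967 for the others. CPM were divided by the union of RefSeq exons for levels per kb. Replicate pairs differed by more than sampling noise (mean chi-square per gene 4.66 to 18.9). With a common biological coefficient of variation of 0.0602, counting error is larger than this for CFB, CD55 and CFD. The test was checked on simulated data with the same dispersion for all genes and changes only in genes above 1 CPM in control. That check does not cover genes as low as CFB and CD55.

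The 9 genes and all lists were chosen with earlier results of these data known. Named were the 9 genes and, of the other complement genes, at most 4 per direction and comparison by size of change among those called (mean count of 10 or more in the higher group), and the 2 most similar profiles per called gene. Alternatives were DESeq2 1.42.0, median-of-ratios factors, library totals, 2 other filters, 2-group fits, a replicate block, other fold limits, each library left out, and for levels the longest transcript. Motifs and promoters came from Sscrofa11.1; matplotlib 3.10.9 drew the figures.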

Additional observations from a re-analysis of the deposited data

How the results depend on the processing

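The median-of-ratios factors, DESeq2, both other filters and the 2-group fits kept every count of called genes within 1.5 times of its main value; with a minimum of 1 CPM in 3 libraries CFB and CD55 were not tested. Of the recomputed log2 fold changes of the 9 genes, 410 kept direction and call, 8 lost and 3 gained the call, and 5 changed sign. With library totals alone, 1 of the 9 genes was called higher in bFGF against OIM (CD55, 1.02, adjusted p = 0.0447 in edgeR's test), 6 other complement genes were called lower and 6 higher there, and CD46 turned to 0.104 against OIM and 0.147 against control. The fold limit decided the small changes of OIM against control: with none, 4 of the 9 genes were lower and, of the other complement genes, 3 were higher and 3 lower, while with a limit of 1, 0 of the 9 genes were lower. With that limit 5 other complement genes were lower in bFGF against OIM. Leaving out 1 library gave 0 to 1 of the 9 genes higher in bFGF against OIM (1 without OIM replicate 1) and 0 to 1 other complement genes lower in OIM against control (1 without bFGF replicate 1). The log2 fold changes of OIM against control ranged from -0.312 (without OIM replicate 1) to 0.667 for CFB, which was -0.024 without control replicate 3, and from -0.22 to 0.038 (without control replicate 2) for CFD. Without OIM replicate 2, which stood apart, 2, 7 and 7 of the 9 genes were called lower in the 3 comparisons. With 1 library left out, the difference in the log2 ratio of CFB to CFI ran from -0.94 to 0.31 between bFGF and control and from -1.74 to -0.48 between bFGF and OIM, and that of CD55 to CD46 from -1.69 to -0.84 between OIM and control and from 0.56 to 1.41 between bFGF and OIM. The causes were not tested. Replicate numbers did not pair the samples (correlations of deviations from -0.03 to 0), and with a replicate block 7 of the 9 genes were again lower in bFGF against OIM and 2 in OIM against control. Depth limits CFB and CD55, which had 2 to 62 counts per library, and CFD, which had 33 to 69 per bFGF library.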

Other observations

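Genes of signals that are known to switch on complement genes in other cells (cytokines, their receptors and transcription factors, 20 genes, of which 19 were tested) were counted in the same fit. In bFGF against OIM 3 were called higher, beside 17.7% of all genes tested and so near that share, and 10 lower, beside 18.4%, with a median log2 fold change of -0.51. In OIM against control 0 were called (0 higher and 1 lower at the unadjusted p in edgeR's test). This stands beside 1.49% of all genes called higher and 0.864% lower, so nothing can be read from that count. In bFGF against control 3 were called higher, beside 18.9%, and 11 lower, beside 20.0%. The genes given here were picked after their values had been seen. CEBPD, a C/EBP factor of the acute-phase response, had 375 CPM in OIM and 85.1 in bFGF, a log2 difference of -2.14 (SE 0.039, adjusted p = 2.31e-19 in edgeR's test). STAT3 fell by 0.72 on the log2 scale, OSMR, the receptor chain for oncostatin M, by 1.57, and IRF1 by 0.79. IL6 moved the other way, from 120 CPM in OIM to 490 in bFGF (log2 fold change 2.03, adjusted p = 4.14e-16 in edgeR's test). IL6ST and IL1R1 were also called higher, with log2 fold changes of 0.59 and 0.70 (adjusted p = 5.24e-11 and 7.03e-12 in edgeR's test). NFKB1 had a log2 fold change of 0.03 (adjusted p = 0.555 in edgeR's test). RELA and NFKBIA had log2 fold changes of -0.246 and -0.485, both under the fold limit (adjusted p = 0.000485 and 1.26e-07 in edgeR's test). Between OIM and control, CEBPD was lower in every OIM library, at 375 against 488 CPM. Its log2 fold change there of -0.38 (adjusted p = 5.54e-07 in edgeR's test) was under the fold limit. Any link between these genes and the complement genes was not tested.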
